A study of Mus musculus with 4 samples.

Results

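Rec8 and the genes it is set against here encode parts of cohesin, the ring that holds sister chromatids together, or, in the case of Ctcf, the DNA-binding protein at which cohesin comes to rest on chromatin. The genes were listed by name as Rec8, Rad21, Smc1a, Smc1b, Smc3, Stag1, Stag2, Stag3, Nipbl and Ctcf, and every array feature whose annotated symbol is one of these names or a synonym of one was taken. This gave 19 features of 9 genes, out of 38880 features and 19909 named genes on the array. No feature carried a symbol of Nipbl, the gene of the cohesin loader, so it is named only. Rec8 was chosen for its high ratio in these data, so its values are a description and carry no test. The other genes were added for their function, with earlier results of these data known.

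Ratios came from 4 two-colour arrays. Each array carried RNA of both genotypes, taken from cerebella dissected on postnatal day 0, with C57Bl/6 mice whose Smarca5 was conditionally knocked out (cKO) in one channel and wild type C57Bl/6 mice in the other. Smarca5 encodes Snf2h, the ATPase of ISWI chromatin remodellers. The labels name 3 RNA samples per genotype. The wild type sample of replicate 1 was used again on replicate 4, and the cKO sample of replicate 3 was used again on replicate 4. Dyes were flipped, so that cKO was labelled with Cy5 on replicates 1 and 3 and with Cy3 on the other two. The sources used here do not give the Cre that drives the deletion, the cells in which it acts, or whether an RNA sample was a pool of animals. With no statement that the RNA samples came from separate animals, p-values measure the spread between these arrays only.

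In dividing somatic cells the ring consists of Smc1a, Smc3 and the kleisin Rad21, with Stag1 or Stag2 bound to the kleisin. Germ cells in meiosis use counterparts of these subunits: Rec8 in place of Rad21, Smc1b in place of Smc1a and Stag3 in place of Stag1 or Stag2. In postmitotic neurons the mitotic subunits remain present, where cohesin and Ctcf shape chromatin loops. In mouse cells Snf2h is known for keeping nucleosomes arranged around sites that Ctcf binds.

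The promoter sequences of the meiotic members show the start regions of the genes on which the contrast between Rec8 and its meiotic partners rests. Each is the 250 bases before the annotated start, 5′ to 3′ on the strand of the gene, from RefSeq on GRCm38.p6. Capitals mark matches to GCGGGA, a core bound by E2F factors, and to CACGTG, an E-box, searched on both strands, so that GCGGGA read from the other strand appears as its reverse complement.
Rec8, chr14:55617916-55618165 (+ strand): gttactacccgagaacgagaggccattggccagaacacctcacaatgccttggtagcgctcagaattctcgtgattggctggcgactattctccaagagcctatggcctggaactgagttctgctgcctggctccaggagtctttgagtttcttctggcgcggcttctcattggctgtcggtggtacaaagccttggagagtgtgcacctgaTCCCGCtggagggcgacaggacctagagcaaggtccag
Stag3, chr5:138280259-138280508 (+ strand): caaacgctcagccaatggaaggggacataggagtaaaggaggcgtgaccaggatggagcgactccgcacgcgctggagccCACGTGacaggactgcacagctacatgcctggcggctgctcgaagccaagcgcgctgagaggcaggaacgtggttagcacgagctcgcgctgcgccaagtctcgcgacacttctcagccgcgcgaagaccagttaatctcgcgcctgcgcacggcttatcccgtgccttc
Smc1b, chr15:85131958-85132207 (- strand): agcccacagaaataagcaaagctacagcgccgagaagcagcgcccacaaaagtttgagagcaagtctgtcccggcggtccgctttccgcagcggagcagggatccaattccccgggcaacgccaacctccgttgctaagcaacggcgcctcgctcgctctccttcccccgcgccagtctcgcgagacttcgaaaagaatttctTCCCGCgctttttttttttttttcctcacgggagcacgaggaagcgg
Rec8 and Smc1b held 1 match to GCGGGA each, at 38 to 33 bases before the start in Rec8 and at 47 to 42 bases before it in Smc1b. Stag3 held no such match and 1 CACGTG, at 170 to 165 bases before its start. Of all 32851 promoter windows of this length, 16.9% held GCGGGA and 6.02% held CACGTG. No match overlapped another. The RefSeq records of Rec8 and Stag3 also hold transcripts that begin further upstream than the starts used here. Of the other members, the windows of Smc3, Stag1 and Ctcf held 1 GCGGGA each and that of Smc1a none, while Rad21, Stag2 and Nipbl were not examined. A match is a run of letters, not a site shown to be bound.

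Values below are log2 ratios with cKO over wild type, centred on the median of each array. This direction is likely but is not stated with the ratios. It rests on the labels, which place cKO in channel 2 on every array, and on 52 features over 4 in size on all 4 arrays. Their median ratio was -7.00 and -6.38 on replicates 1 and 3 and 7.04 and 6.52 on replicates 2 and 4. All 52 changed sign with the dye orientation, as a signal of 1 dye does in columns already turned to 1 genotype over the other. They cannot tell which genotype is the numerator, which rests on the labels. Were it wild type, every ratio would have the opposite sign and Rec8 would be lower in cKO. The log base is not stated and was taken as 2, and scanner intensities were not used here, so whether a feature was above background on either channel is unknown. The feature named Smarca5 lay below 0 on every array, with a mean of -0.93 ± 0.47 (SD, n = 4 arrays). Another feature, whose clone name RefSeq gives to Smarca5, had the opposite sign on every array, with a mean of 0.23 ± 0.21 (SD, n = 4 arrays). Whether either lies in the deleted part is not known here, so these check the labels only in part. Ratios carry no levels, so the tissue could not be checked by its markers, and in bulk tissue a change in the share of a cell type and a change of RNA per cell cannot be told apart. Arrays of one dye orientation correlated over all features at 0.16 and 0.14, and arrays of opposite orientation between -0.21 and -0.12.

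Rec8 stood far above 0 on every array. Its single feature read 2.83 on replicate 1, 3.36 on replicate 2, 2.45 on replicate 3 and 3.15 on replicate 4. Averaged over arrays this was 2.95 ± 0.40 (SD, n = 4 arrays), or 7.71-fold higher in cKO. Both arrays with cKO in Cy3 read higher than both arrays with cKO in Cy5, with means of 3.25 and 2.64, so the sign did not follow the dye while the size differed somewhat with it. Were the columns of the dye-flip arrays to be turned, the mean of Rec8 would be -0.31 and that of Stag3 -0.11, so both rest on the direction given above. Replicates 1, 2 and 3, which share no RNA sample, all read above 2. The spread of Rec8 was ordinary for this array set, since 39.7% of all features had a smaller SD and the median SD of all features was 0.47. Were the deposited values natural logs, the fold would be larger.

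Set among all features, Rec8 had the second highest mean. Only Zfp605, a zinc finger gene, had a higher one. Its feature is annotated as the clone A830023I12Rik, a name that RefSeq gives to Zfp605. Rec8 and Zfp605 were the only 2 of 38880 features above 2 on all 4 arrays, while 0 features lay below -2 on all 4. On a single array Rec8 was less exceptional, with 101, 68, 92 and 80 features higher than it on replicates 1 to 4. The middle 95% of feature means ran from -0.65 to 0.65. Above 0 on all 4 arrays were 5.46% of all features and below 0 on all 4 were 5.45%. Because Rec8 was chosen by these very values, nothing further is read from its place among them.

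**Figure D1:**
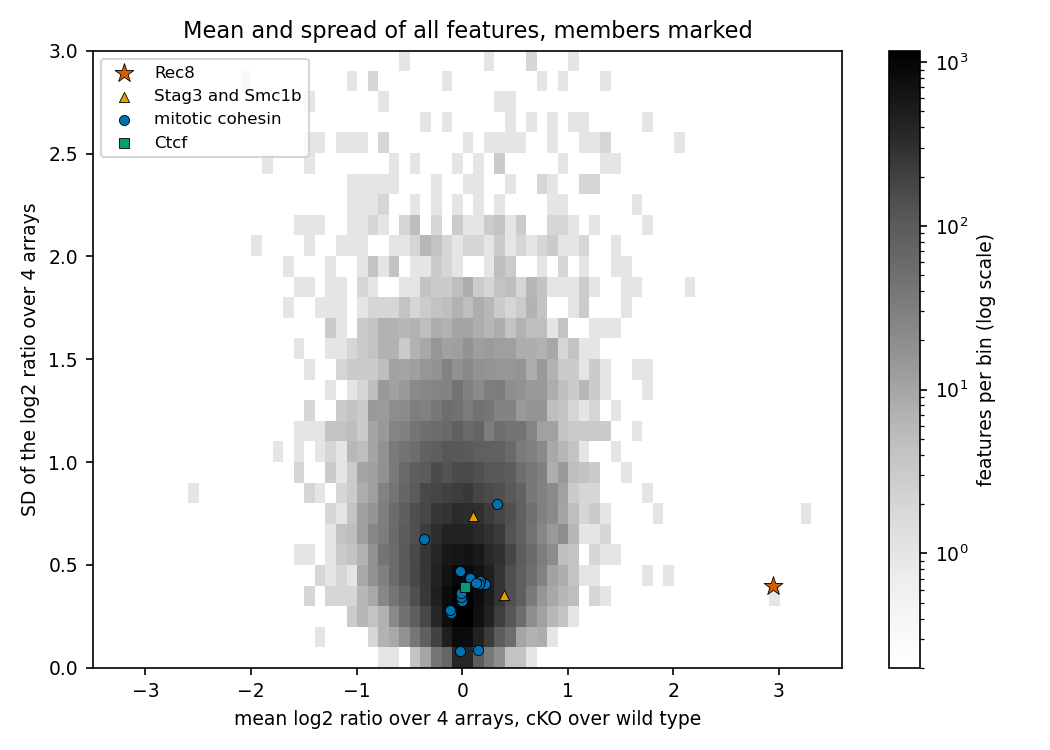
Mean log2 ratio over the 4 arrays (horizontal axis) against its SD over the 4 arrays (vertical axis) for all features, with shading for the number of features per bin on a log scale and symbols for Rec8, the meiotic partners Stag3 and Smc1b, the mitotic cohesin features and Ctcf. Rec8 lies at a mean of 2.95 with an SD of 0.40, while the other 18 features lie between -0.36 and 0.40; 90 features with an SD of 3 or more are outside the plot, 52 of them the features that carried 1 dye.

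No feature passed the test. limma with Benjamini-Hochberg adjustment over all features called 0 of 38880 features (0%) at an adjusted p under 0.05. An unadjusted p under 0.05 was reached by 522, or 1.34%. The fit allowed for shared RNA samples, so replicate 4 has no weight in its estimate. That estimate can differ in sign from the mean of all 4 arrays where replicate 4 stands apart. It rests on replicates 1 and 3, with cKO in Cy5, and on replicate 2, with cKO in Cy3, and had no dye term. A dye effect therefore does not cancel in the fitted ratio as it can in the mean of all 4 arrays. Among the 18 member features other than Rec8 the unadjusted limma p ran from 0.104 for Stag3 to 0.991 for a feature of Stag2, and 0 had a p under 0.05. Of these 18, the 2 with 1 sign on all 4 arrays were Stag3 and a Smc3 feature at 0.07 to 0.22, both above 0, where 10.9% of all features had 1 sign in either direction. A p that misses the threshold does not show that a gene was unchanged, and the SD of single mitotic features ran from 0.08 to 0.80.

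The meiotic partners of Rec8 did not share its ratio. Stag3, the meiotic counterpart of Stag1 and Stag2, read 0.24, 0.91, 0.34 and 0.11 on replicates 1 to 4. It lay above 0 on every array, highest on replicate 2, with a mean of 0.40 ± 0.35 (SD, n = 4 arrays). Smc1b, the meiotic counterpart of Smc1a, read 0.04, 0.27, -0.85 and 0.94 on the same arrays. Its sign differed between arrays, with the lowest value on replicate 3 and the highest on replicate 4, arrays that carried the same cKO RNA, and its mean was 0.10 ± 0.74 (SD, n = 4 arrays). Neither passed, with a limma adjusted p of 1.00 for both and an unadjusted limma p of 0.104 for Stag3 and 0.754 for Smc1b, whose fitted ratio was -0.18. No value of Stag3 or Smc1b reached the lowest value of Rec8, and the highest of them was 0.94.

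Rad21, the mitotic kleisin that Rec8 replaces in meiosis, had the gene mean closest to 0 among the members. Its single feature read 0.08, -0.09, -0.08 and 0.01 on replicates 1 to 4, or -0.02 ± 0.08 over arrays (SD, n = 4 arrays). Only 1.77% of all features had a smaller SD, so the ratio of Rad21 was among the tightest measured. The limma p was 0.896 (adjusted p 1.00). The ratio of Rec8 exceeded that of Rad21 by 2.75, 3.45, 2.53 and 3.14 on replicates 1 to 4.

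The ring subunits Smc1a and Smc3 were each read by several features, which scattered around 0. The 5 features of Smc1a, an X-linked gene, had means of 0.13, -0.01, 0.16, 0.33 and -0.01, and averaged per array they gave 0.29, 0.00, -0.06 and 0.25 on replicates 1 to 4. The gene mean was 0.12 ± 0.18 (SD, n = 4 arrays). The widest of these features read 1.12 and 0.91 on replicates 1 and 4, which share the wild type RNA, and -0.42 and -0.29 on replicates 2 and 3. Another feature had the same signs at smaller size, with 0.21, -0.24, -0.37 and 0.35 on replicates 1 to 4, and the other 3 did not share this pattern. For Smc3 the 4 feature means were 0.15, -0.36, -0.02 and -0.12, and the array values of the gene were 0.04, 0.21, -0.35 and -0.24. Its gene mean was -0.09 ± 0.26 (SD, n = 4 arrays). The low value of Smc3 on replicate 3 came mainly from 1 feature at -1.26, where the other 3 read 0.07, -0.07 and -0.15. That feature and the widest one of Smc1a gave the only 2 of 60 mitotic readings over 1 in size.

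Stag1 and Stag2 encode the alternative subunits that bind Rad21. The 3 features of Stag1 had means of 0.17, 0.07 and -0.01, and the gene read 0.09, -0.01, 0.32 and -0.10 on replicates 1 to 4. Its mean was 0.08 ± 0.18 (SD, n = 4 arrays). The 2 features of the X-linked Stag2 had means of 0.22 and -0.11, and the gene read 0.24, 0.16, 0.21 and -0.40. Its mean was 0.05 ± 0.30 (SD, n = 4 arrays), with replicate 4 alone below 0. Features 2 and 3 of Stag1 and feature 2 of Stag2 were above 0 on both arrays with cKO in Cy5 and below 0 on both with cKO in Cy3. Their sign thus moved with the dye, whose part in their values was not tested. How many of all features do so was not counted.

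Ctcf, the zinc finger protein that binds insulators and stops cohesin, was read by 1 feature. It gave -0.49, 0.22, -0.05 and 0.42 on replicates 1 to 4. Its mean was 0.03 ± 0.39 (SD, n = 4 arrays), and its fitted ratio was -0.11 (limma p 0.767, adjusted p 1.00). Both arrays with cKO in Cy5 were below 0 and both with cKO in Cy3 above it, with means of -0.27 and 0.32, so its sign moved with the dye, whose part in the value was not tested. Rec8 exceeded Ctcf on every array, by 2.92 ± 0.37 (SD, n = 4 arrays).

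**Figure D2:**
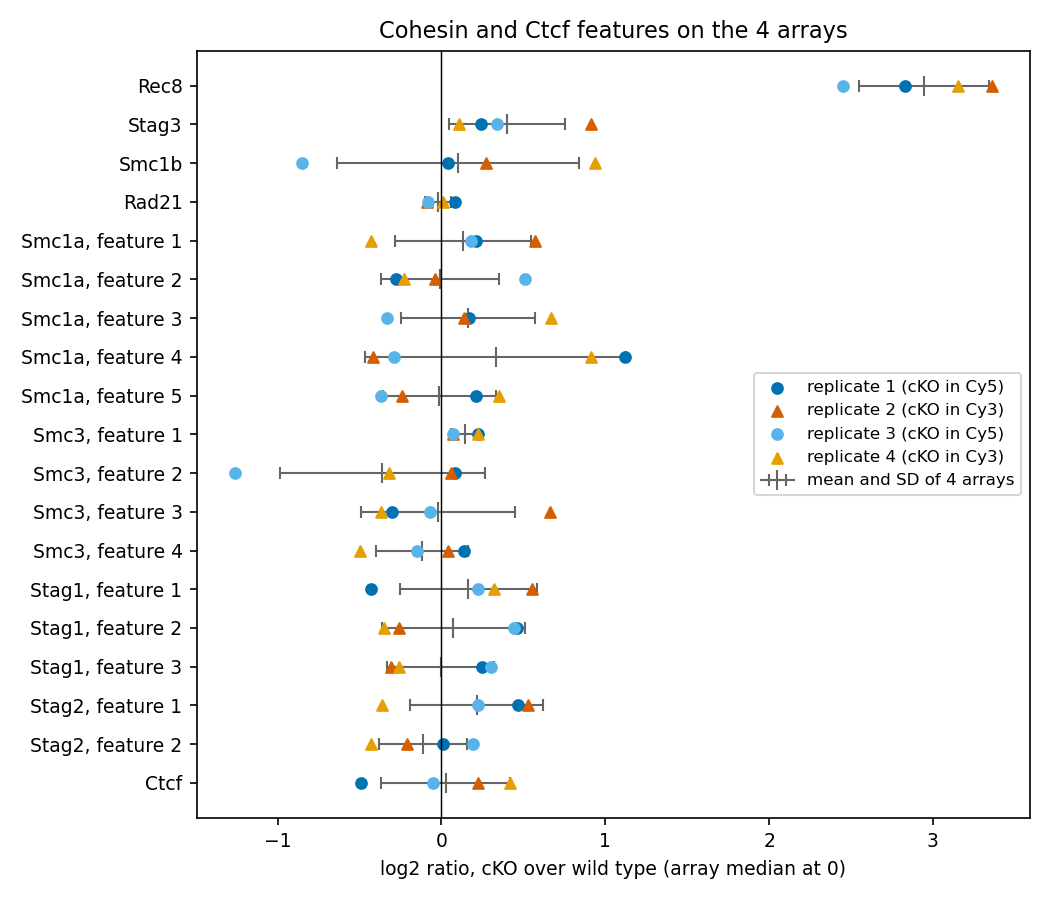
Log2 ratio of cKO over wild type (horizontal axis) for each of the 19 features (rows) on the 4 arrays, with circles for arrays with cKO in Cy5, triangles for arrays with cKO in Cy3, and the mean with its SD as a grey bar. The 4 values of Rec8 lie between 2.45 and 3.36, and all 72 values of the other features lie between -1.26 and 1.12.

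Over the mitotic members as a whole the ratios centred on 0. Of the 60 readings of the 15 features of Rad21, Smc1a, Smc3, Stag1 and Stag2, 34 lay above 0 and 26 below. The mean of the 5 genes was 0.15, 0.05, 0.01 and -0.09 on replicates 1 to 4, or 0.03 ± 0.10 (SD, n = 4 arrays). The median of the 15 feature means was -0.01, against 0.00 for all features. Rec8 exceeded the mitotic mean by 2.68, 3.31, 2.44 and 3.24, a difference of 2.92 ± 0.42 (SD, n = 4 arrays), or 7.56-fold. The choice of Rec8 by its ratio fixes the sign of that difference, so it was not tested.

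The genes beside Rec8 on chromosome 14 did not share its ratio. The 5 genes listed before it in the RefSeq table (Psme1, Emc9, Psme2, Rnf31 and Irf9) and the 5 after it (Ipo4, Tm9sf1, Tssk4, Mdp1 and Nedd8) were all measured. Their means ran from -0.32 for Rnf31, a ubiquitin ligase gene, to 0.11 for Irf9, an interferon response factor gene and the nearest on one side. Ipo4, an importin gene and the nearest on the other side, read -0.28, 0.07, 0.33 and -0.51 on replicates 1 to 4. Single values of the 10 genes lay between -1.40 and 0.86, so none came near the 2.45 that was the lowest of Rec8. Rnf31 was the 1 of 10 with 1 sign on all 4 arrays, where 11.6% of all genes had 1 sign. The part of the Rec8 transcript that this feature reads is not known here.

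**Figure D3:**
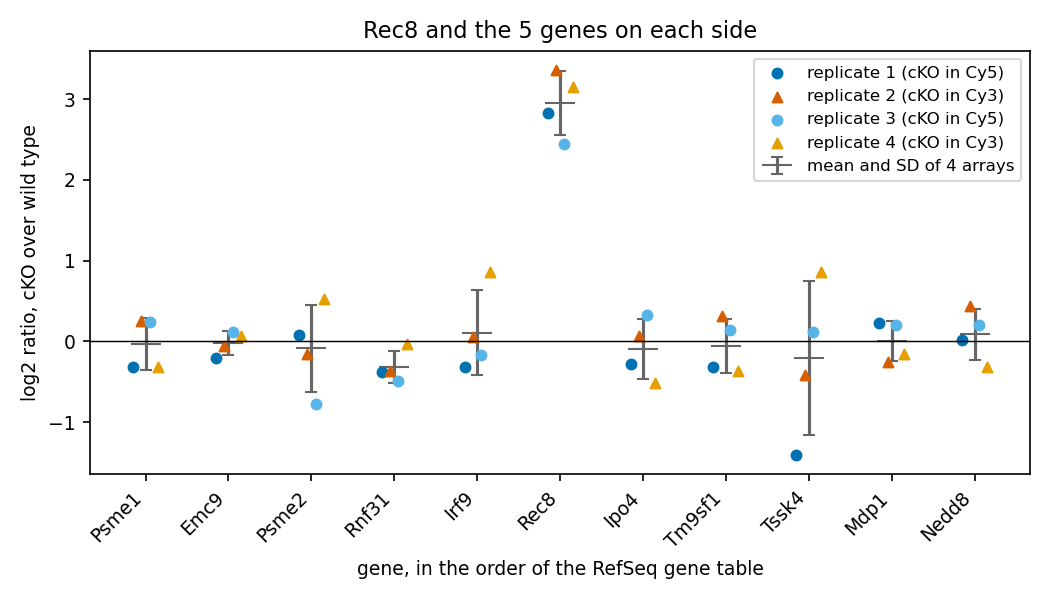
Log2 ratio of cKO over wild type (vertical axis) of Rec8 and the 5 genes on each side in gene order (horizontal axis), with 1 symbol per array and the mean with its SD as a grey bar. Values of the 10 neighbours lie between -1.40 and 0.86, and those of Rec8 between 2.45 and 3.36.

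Regulators of the cohesin cycle were split in direction. The same fit over gene averages called 0 of 19909 genes (0%). The products of the 16 regulator genes measured load, lock, release, modify or cut cohesin. Of these genes, 9 had a mean above 0, where 49.7% of all genes did, and 7 below. Their median was 0.05, and 0 passed. Wapl, which releases cohesin from chromatin, had the highest mean at 0.51 ± 0.91 (SD, n = 4 arrays), carried by 1.84 on replicate 1, while the other arrays read 0.20, 0.21 and -0.21 and gave a mean of 0.07. Sgo2a, a shugoshin that protects centromeric cohesin and, in mouse meiosis, Rec8 itself, read -0.79, -0.22, -0.17 and -0.55. It was the 1 gene of the list with 1 sign, with a mean of -0.43 ± 0.29 (SD, n = 4 arrays; limma p 0.131, adjusted p 1.00). Of all genes, 11.6% had 1 sign on all 4 arrays. Mau2, the partner of Nipbl in loading cohesin, had 0.10 ± 0.26 (SD, n = 4 arrays).

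Of the genes of the related condensin and Smc5/6 complexes and Smchd1, 14 were measured. Of these, 12 means lay below 0 and 2 above, with a median of -0.05, where 49.7% of all genes had a mean above 0. The direction was not shared by all arrays, since the list mean was -0.21, -0.13, 0.11 and -0.20 on replicates 1 to 4. None of the 14 genes passed. Ncapd3, a subunit of condensin II, read -2.32, -0.27, -0.01 and -0.86 and was the 1 member with 1 sign, with a mean of -0.87 ± 1.03 (SD, n = 4 arrays; limma p 0.122, adjusted p 1.00). Without replicate 1 the mean of Ncapd3 was -0.38. Of all genes, 11.6% had 1 sign on all 4 arrays. The 9 measured genes of proteins that bind beside or act with Ctcf had a median of -0.01, with 4 above and 5 below 0. Of these 9, 0 had 1 sign on all 4 arrays, against the same 11.6%.

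Genes that act with Rec8 on meiotic chromosomes were split in direction. Of 24 measured, 13 had a mean above 0, where 49.7% of all genes did, and 11 below. Their median was 0.09 against 0.00 for all genes, and 0 passed. A total of 2 lay above 0 on all 4 arrays and 4 below, where 5.92% of all genes lay above and 5.72% below. Sycp1, the transverse filament of the synaptonemal complex, read 0.28, 1.23, 0.52 and 1.94, with a mean of 0.99 ± 0.75 (SD, n = 4 arrays; limma p 0.288, adjusted p 1.00). It was higher on the arrays with cKO in Cy3 than on those with cKO in Cy5. Mnd1, a partner of the meiotic recombinase, had -0.52 ± 0.25 (SD, n = 4 arrays; limma p 0.116, adjusted p 1.00). Ccnb3, a cyclin gene of meiosis, had -0.51 ± 0.82 (SD, n = 4 arrays), with -1.74 on replicate 1 and a mean of -0.10 without that array.

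Germline genes were split in direction as well. Of 17 measured, 7 had a mean above 0, where 49.7% of all genes did, and 10 below. The median of the 17 was -0.03. Above 0 on all 4 arrays were 2 of these genes, where 5.92% of all genes were. Mov10l1, an RNA helicase of the piRNA pathway, read 1.77, 0.37, 0.45 and 1.14, with a mean of 0.93 ± 0.66 (SD, n = 4 arrays; limma p 0.0396, adjusted p 1.00), where 1.56% of genes had an unadjusted p under 0.05. Without replicate 1 the mean of Mov10l1 was 0.65. Dazl, an RNA-binding protein of germ cells, read 0.38, 1.13, 0.65 and 1.47, with a mean of 0.91 ± 0.49 (SD, n = 4 arrays; limma p 0.12, adjusted p 1.00). Dazl too was higher on the arrays with cKO in Cy3. Of 8 germ cell markers (Dazl, Ddx4, Mael, Tex101, Taf7l, Stk31, Dppa3 and Sycp3), 4 had a mean above 0 and 4 below, and their mean ratio was -0.22, 0.28, 0.07 and 0.07 on replicates 1 to 4. Sycp3, the axis protein that works beside Rec8 in meiosis, had 0.37 ± 0.43 (SD, n = 4 arrays).

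**Figure D4:**
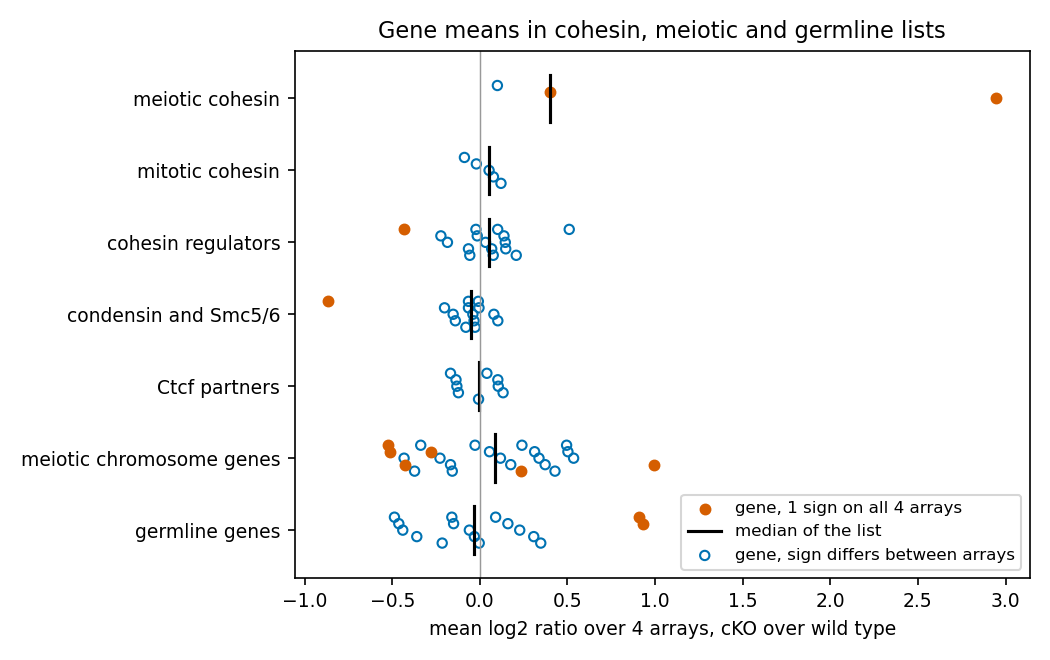
Mean log2 ratio over the 4 arrays (horizontal axis) of each measured gene in 7 lists (rows), filled where the gene had 1 sign on all 4 arrays and open where its sign differed, with the list median as a black line. Rec8, at 2.95 in the meiotic cohesin row, lies apart from every other gene shown, of which the next is Sycp1 at 0.99.

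The genes with ratios nearest to those of Rec8 are described here. That few lie near it follows from its choice by a high ratio, since the distance depends on size. By Euclidean distance between the ratios on the 4 arrays, the nearest gene was Zfp605 at a distance of 1.84, with values of 2.54, 3.29, 4.26 and 2.96. The next named genes were the mitochondrial ribosomal protein gene Mrpl21 at 3.26, the vomeronasal receptor gene Vmn1r217 at 3.40, the cytochrome P450 gene Cyp2c39 at 3.44 and the olfactory receptor gene Olfr338 at 3.52. Clones without a gene name were passed over, of which 4933436E23Rik was nearest at 2.37. For comparison, a gene at 0 on all 4 arrays would lie at 5.93. Distance over 4 arrays is a description and carries no test.

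Genes of hindbrain behind the cerebellum stood high on replicate 1. Hoxb2, Hoxb3, Hoxb4 and Hoxb5, which mark it, had a mean ratio of 3.14 there and of -0.18, -0.59 and -0.21 on replicates 2 to 4, where Hoxb4 still read 1.36 on replicate 4. The mean of Rec8 was 2.99 without replicate 1 and 2.95 over all 4 arrays. Whether hindbrain tissue had a part in any ratio given here was not tested.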

How the data were processed

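For each feature and array the authors deposited a log ratio, read here as log2. Their scanner, background correction and normalization are not stated in these sources. Per the labels' protocols, RNA came from Trizol extraction and was labelled with a Genisphere kit. Columns were centred on their medians (0.01, 0, 0.01 and -0.02).

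The platform annotation gave 1 symbol to 30457 features and none to 8423. RefSeq (GRCm38.p6, used for names, gene order and promoters) held 18812 of these as current symbols and 11220 as a synonym of 1 gene, and 425 were kept as given. Features of a gene were averaged for gene values, which were fitted likewise for the list genes. Rad21l, Ncaph2, Fkbp6, Sohlh1, Ctcfl and Zfp143 of the lists matched no feature.

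Features were fitted with limma 3.58.1 in R 4.3.3 (intercept alone, two-sided, Benjamini-Hochberg adjusted p under 0.05), with a correlation of 0.5 between arrays that share RNA, which gives replicate 4 a weight of 0 in the estimate. The fit was tested on simulated data. Precision is limited by the number of arrays.

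The members, gene lists, motifs and tests were chosen with earlier results of these data known. The named genes were the members, Smarca5, the 3 genes of largest mean with 1 sign in each list, the 5 named genes closest to Rec8 and its 5 neighbours on each side; Wapl, Mau2 and Sycp3 were added after their values were seen. Alternatives were turned dye-flip columns, no centring, independent arrays, gene averages, a dye term, each dye orientation alone, current symbols alone and each array left out. The Rec8 feature was annotated as Rec8L1, those of Smc1a as Smc1l1, that of Smc1b as Smc1l2 and those of Smc3 as Cspg6. Rec8 has no feature under its current symbol, so the setting of current symbols alone gives no check of it.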

Additional observations from a re-analysis of the deposited data

Results flagged for a closer look

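For 50 values (member features, named genes, neighbours and list means), the array farthest from the others was compared with the range of all 4 arrays. In 2 of them 1 array stood apart, where chance would give 2.5. This count cannot tell whether a given one of the 2 arose by chance. Ccnb3 read -1.74 on replicate 1 against -0.22 to -0.03 on the others. The mean of the 4 hindbrain Hox genes was 3.14 on replicate 1 against -0.59 to -0.18 on the others. On replicate 1 Hoxb2, Hoxb3, Hoxb4 and Hoxb5 read 2.56, 3.605, 2.64 and 3.76. No member feature was among them. Members were examined by feature, while the gene mean of Stag2 read -0.40 on replicate 4 against 0.16 to 0.24 on the others.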

How the results depend on the processing

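Were every column wild type over cKO, every ratio given here would have the opposite sign. The Rec8 ratio of 2.95 also depended on whether the dye-flip columns were already turned. With the dye-flip columns turned it was -0.31, the difference from the mitotic mean was -0.36, and 48 features were called, of which 47 were among the features that carried 1 dye and 0 were members. The other settings called 0 features, while an unadjusted limma p under 0.05 was reached by 522 features in the fit reported, 1760 with arrays fitted as independent, 1083 with a dye term and 217 to 1662 with 1 array left out. Without 1 array, Rec8 had 2.81 to 3.11, the mitotic mean -0.01 to 0.07, their difference 2.79 to 3.08 and Ctcf -0.11 to 0.20. The mitotic mean and Ctcf thus changed sign within their spread. Over the arrays with cKO in Cy5 alone Rec8 had 2.64, and over those with cKO in Cy3 3.25. Smc1b, Rad21, Stag1, Stag2, Wapl and Mau2 each changed sign under at least 1 of these alternatives. Of 198 values of 22 single genes, 12 moved by at least 1 SD, all 12 with turned columns, among them Stag3 (-0.11), Zfp605 (0.14), Sycp1 (-0.59) and Dazl (-0.39). Each ratio already pairs a cKO with a wild type RNA on 1 array. No paired analysis beyond that was possible because the replicate number marks the array itself, which leaves no further block to fit.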
